A study of Homo sapiens with 7 samples.

Results

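Mitochondrial ribosomal proteins were taken as the protein-coding genes of the RefSeq GRCh38.p14 table whose symbol starts with MRPL or MRPS and a digit, which gave 77 of 20037 protein-coding genes. A ChIP-seq peak was assigned to a gene when its centre lay inside the gene or within 1 kb of its ends. The study mapped where the transcription factors ATF4 and MYC sit on DNA in DLD-1 cells, an established human colon adenocarcinoma line. All cells carried a retrovirus for MycER, in which MYC is joined to a hormone-binding domain of the estrogen receptor and stays inactive until 4-hydroxytamoxifen is added. Control cells received vehicle, and activated cells received 500 nM 4-hydroxytamoxifen for 8 hr. ATF4 was profiled in 2 control and 2 activated libraries and MYC in 2 activated libraries, and the IgG immunoprecipitation gave no peak list used here. There was no group with the inducer and without MycER, and binding of MYC under vehicle was not analysed here, so the values describe where MYC sat after activation and not what activation changed. Endogenous MYC and MycER cannot be told apart in these lists.

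The mitochondrial ribosome translates the few membrane proteins of the respiratory chain that mitochondrial DNA still encodes. Its ribosomal RNAs come from mitochondrial DNA, whereas its proteins are made from nuclear genes, translated in the cytosol and imported. Some of these proteins descend from bacterial ribosomal proteins and others joined the particle in the mitochondrial lineage, in a large subunit that forms peptide bonds and a small subunit that reads the mRNA. MYC binds promoters of genes for growth and ribosome production, often at the sequence CACGTG (the canonical E-box), and ATF4 is the effector of the integrated stress response, a pathway that defects of mitochondrial translation can set off.

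Depth went with the replicate number, from 21.04 to 24.95 M tags in the replicate 1 libraries and from 49.75 to 50.3 M in those of replicate 2. The lists held from 916 to 2231 ATF4 peaks and 8636 and 22532 MYC peaks. Median peak width in replicates 1 and 2 was 148 and 176 bp for MYC. For ATF4 it was 184 and 212 bp in control cells and 170 and 204 bp in activated cells. No adjustment of tags for width was made here. The weakest peak listed was between 2.39 and 4.46 tags per 10 M. A member without a peak in a library has no tag count there, so it is not shown to be unbound. Labels do not say whether replicates were separate cultures, so the spread between them may be technical. Peak lists carry no expression, so the labelled cell type could be checked only through MYC peaks: these were in both libraries at 4 of 10 colon epithelial markers (CDH1, CDX2, KRT8 and LGR5), 0 of 6 blood markers, 1 of 5 fibroblast markers (PDGFRB) and 1 of 4 neuronal markers (RBFOX3), beside 21.2% of all genes. In replicate 2 alone the counts were 6 of 10, 3 of 6, 1 of 5 and 3 of 4, so these peaks do not tell the cell type.

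MYC peaks at these genes mostly lay near a transcription start, and the promoter windows below show the letters at the starts of 6 of them. A window is not the peak: the replicate 2 centres at MRPL3 and MRPS17 lay 60 and 67 bp inside the start, just past the window, and the MRPL45 peak found in both libraries was far inside the gene. Each is the RefSeq window from 250 bases before to 50 bases after a transcription start (GRCh38.p14), written 5′ to 3′ on the gene's strand. Capitals mark CACGTG, or CCGGAAGT, a core bound by factors of the ETS family such as GABP. The first set is from the 3 members with the strongest MYC peaks among those without CACGTG in the window: MRPL3 (chr3:131502922-131503221, minus strand), MRPL24 (chr1:156741039-156741338, minus strand) and MRPS17 (chr7:55951627-55951926, plus strand).
MRPL3: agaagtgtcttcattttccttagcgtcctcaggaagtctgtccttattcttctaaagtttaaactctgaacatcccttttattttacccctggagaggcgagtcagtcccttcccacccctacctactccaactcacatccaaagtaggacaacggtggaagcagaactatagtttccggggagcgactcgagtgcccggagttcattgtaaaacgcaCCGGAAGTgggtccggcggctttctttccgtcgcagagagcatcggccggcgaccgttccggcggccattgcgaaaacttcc
MRPL24: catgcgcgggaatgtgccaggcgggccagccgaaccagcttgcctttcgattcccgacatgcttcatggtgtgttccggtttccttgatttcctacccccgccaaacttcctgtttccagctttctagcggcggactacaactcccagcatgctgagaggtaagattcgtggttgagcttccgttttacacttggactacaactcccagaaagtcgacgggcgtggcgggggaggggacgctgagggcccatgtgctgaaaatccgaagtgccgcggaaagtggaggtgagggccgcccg
MRPS17: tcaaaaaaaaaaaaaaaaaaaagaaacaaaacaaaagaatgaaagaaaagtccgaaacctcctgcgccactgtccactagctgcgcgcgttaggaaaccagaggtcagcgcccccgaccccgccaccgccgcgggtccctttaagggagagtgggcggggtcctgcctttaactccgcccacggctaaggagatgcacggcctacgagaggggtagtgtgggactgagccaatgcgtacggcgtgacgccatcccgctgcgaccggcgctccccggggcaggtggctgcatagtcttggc
The second set is from MRPL45 (chr17:38296918-38297217, plus strand), MRPL49 (chr11:65121933-65122232, plus strand) and MRPS33 (chr7:141014630-141014929, minus strand), the 3 members that had CACGTG in the window and a MYC peak in both libraries.
MRPL45: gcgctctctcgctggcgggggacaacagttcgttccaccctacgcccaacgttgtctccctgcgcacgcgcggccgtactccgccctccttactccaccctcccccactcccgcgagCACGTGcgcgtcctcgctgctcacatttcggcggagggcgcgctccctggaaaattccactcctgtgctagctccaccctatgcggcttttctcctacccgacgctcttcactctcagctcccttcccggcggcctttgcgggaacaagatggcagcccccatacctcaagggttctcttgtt
MRPL49: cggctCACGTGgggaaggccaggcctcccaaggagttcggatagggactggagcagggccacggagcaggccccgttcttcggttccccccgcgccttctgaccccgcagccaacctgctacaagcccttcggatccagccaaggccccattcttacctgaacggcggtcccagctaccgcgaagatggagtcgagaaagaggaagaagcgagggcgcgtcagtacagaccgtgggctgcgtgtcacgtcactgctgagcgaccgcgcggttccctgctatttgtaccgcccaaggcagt
MRPS33: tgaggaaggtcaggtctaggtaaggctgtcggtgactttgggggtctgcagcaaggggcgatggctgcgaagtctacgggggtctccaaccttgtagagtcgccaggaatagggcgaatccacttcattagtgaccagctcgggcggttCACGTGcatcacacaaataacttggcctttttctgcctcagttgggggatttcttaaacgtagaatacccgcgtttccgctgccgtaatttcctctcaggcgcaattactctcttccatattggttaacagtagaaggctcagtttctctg
Both sets were chosen by their letters and MYC tags, so their heights are no result about CACGTG. The replicate 2 peak at MRPS33 was centred 4 bp before another start of the gene, outside the window printed.

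MYC peaks in both libraries were found at 33 of the 77 members (42.9%), against 21.2% of all protein-coding genes. With the peak centre required to lie inside the gene the count was 19 (24.7%), against 16.1% of all genes. In replicate 1 alone 34 members had a peak (44.2%, all genes 22.4%), and in replicate 2 alone 64 members did (83.1%, all genes 48.9%). Peaks within 1 kb of a transcription start in both libraries were at 30 members (39.0%), against 11.2% of all genes. Where the promoter table had no start for a gene, which held for 8 members, both ends of the gene stood in for it. The members are short genes, with a median length of 8618 bp against 24115 bp for all protein-coding genes. At 31 of the 33 members the peaks of the 2 libraries overlapped, and at MRPL49 and MRPL18 they lay apart.

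Cytosolic ribosomal protein genes had MYC peaks in both libraries at 70 of 91 (76.9%), and genes with symbols of nuclear-encoded respiratory complex I to V subunits at 17 of 88 (19.3%). The mitochondrial ribosomal proteins therefore lay between these lists in the share with a peak, a description with no test. Both lists were drawn by gene symbol and not curated. They count every match, including readthrough entries such as RPL17-C18orf32 and NDUFC2-KCTD14, and symbols such as ATP5IF1 and COX8C. In the deeper library the order was the same, with 86 cytosolic ribosomal protein genes (94.5%) and 55 complex subunits (62.5%). The strength of the peaks also differed: members with a peak in both libraries had a median of 7.68 tags per 10 M (quartiles 5.96 and 10.0), cytosolic ribosomal protein genes 10.9 and complex subunits 7.47. All protein-coding genes with a peak in both libraries had a median of 7.89 (quartiles 6.04 and 10.9). A larger share of members than of genes at large had a MYC peak, but those peaks were of no greater median strength. In replicate 1 the medians were 5.23 tags at members and 6.18 over all genes, and in replicate 2 they were 9.18 and 9.58. Longer genes can hold more peaks from which the strongest is taken, and strength was not compared at like gene length.

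**Figure D1:**
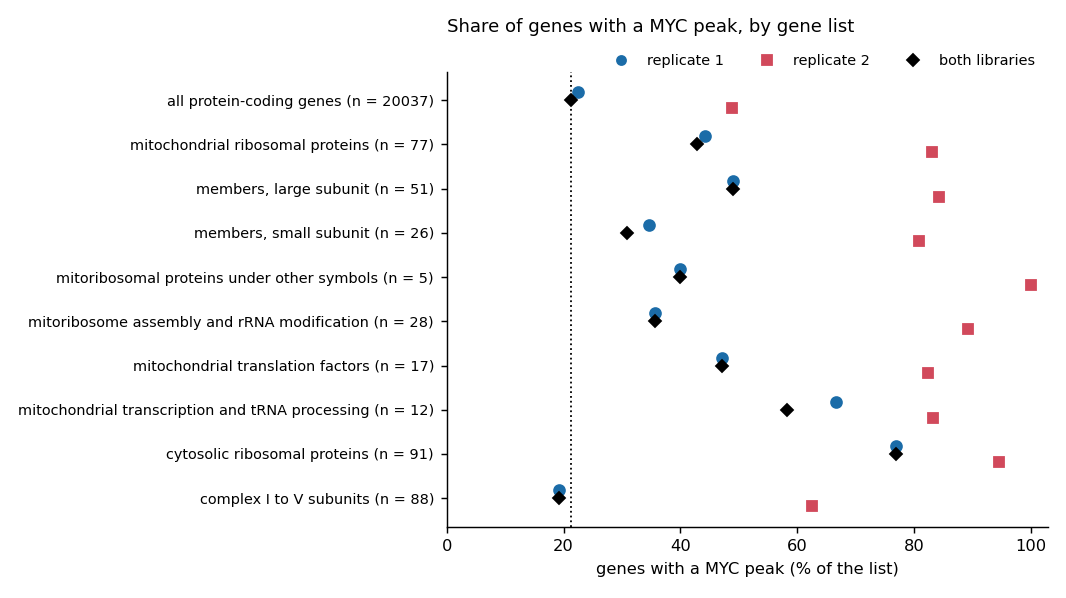
Share of each gene list with a MYC peak in replicate 1 (circles), replicate 2 (squares) and both libraries (diamonds), in percent of the list; the dotted line is the share of all protein-coding genes in both libraries, 21.2%. Mitochondrial ribosomal proteins lie at 42.9% in both libraries, between cytosolic ribosomal proteins at 76.9% and complex I to V subunits at 19.3%.

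By role, MYC peaks in both libraries were at 17 of 30 large subunit proteins with a bacterial counterpart (56.7%) and 8 of 21 large subunit proteins specific to mitochondria (38.1%). In the small subunit they were at 3 of 16 proteins with a bacterial counterpart (18.8%) and 5 of 10 specific to mitochondria (50.0%). The large subunit as a whole had 25 of 51 (49.0%) and the small subunit 8 of 26 (30.8%). This gap was smaller in the deeper library alone, where 43 large subunit members (84.3%) and 21 small subunit members (80.8%) had a peak. The difference between the subunits was not tested.

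**Figure D2:**
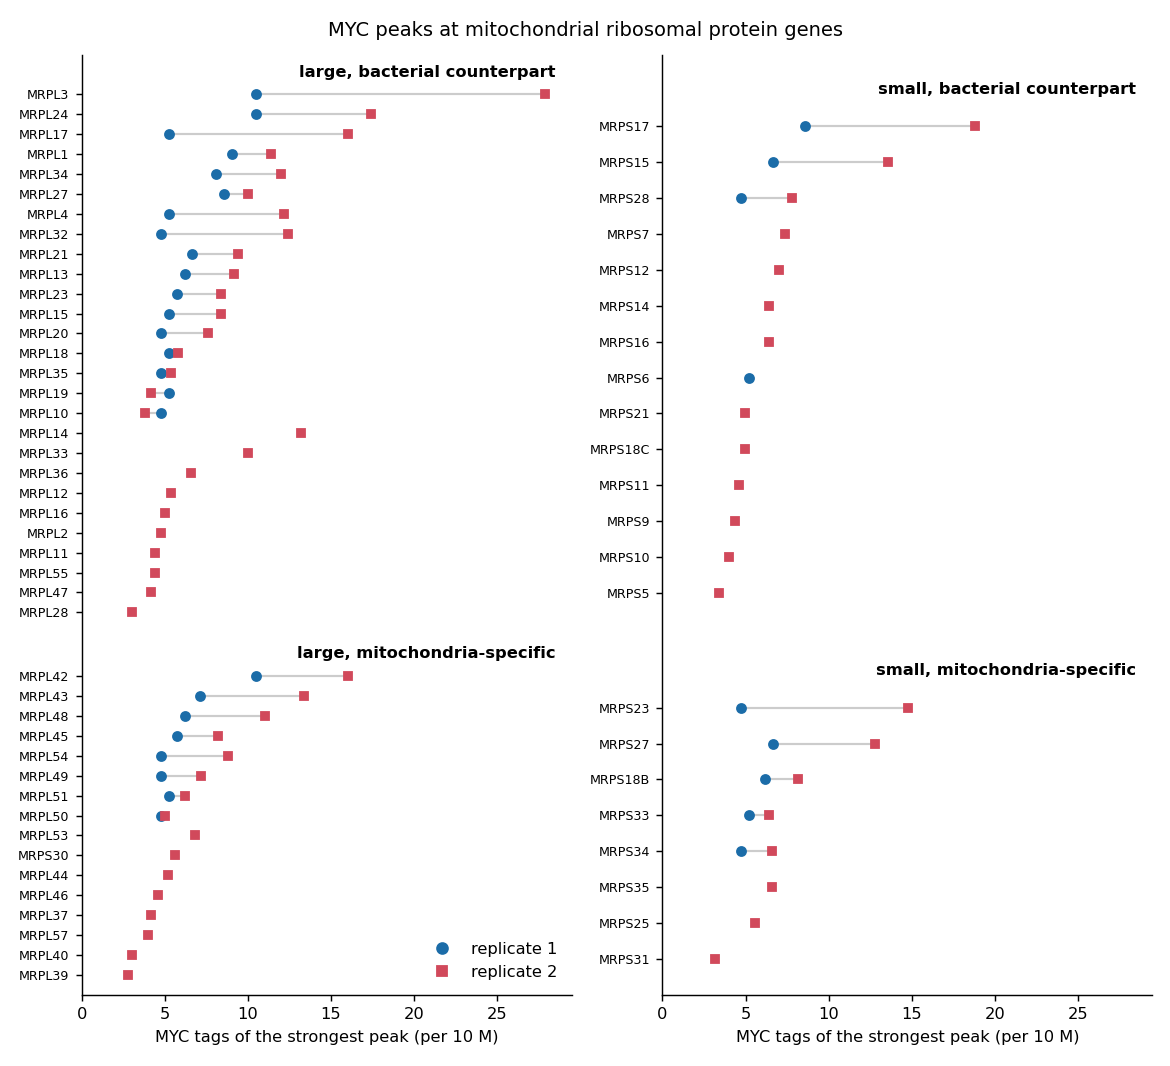
Normalized tag count (tags per 10 M) of the strongest MYC peak at each of the 65 members with one, in replicate 1 (circles) and replicate 2 (squares), by role; grey lines join the libraries of a member. MRPL3 reaches 27.9 tags in replicate 2, and the members with a square alone are the 31 called in replicate 2 only.

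Among large subunit proteins with a bacterial counterpart, MRPL3 had the strongest MYC peak of all members. MRPL3, the counterpart of a bacterial protein that reaches toward the peptidyl transferase centre, had 10.5 tags per 10 M in replicate 1 (22 reads) and 27.9 in replicate 2 (140 reads), 19.2 ± 12.3 (SD, n = 2). The peak, chr3:131502823-131502999 in replicate 2, was centred 60 bp inside the start shown above and was 120.96-fold over the background library by the authors' value. The libraries differed by more than counting error, with exact Poisson 95% intervals of 6.55 to 15.8 and 23.5 to 33 tags. MRPL24, whose bacterial counterpart starts assembly of the large subunit, had 10.5 and 17.4 tags in replicates 1 and 2, with the replicate 2 peak at chr1:156740974-156741150, 26 bp inside the start. MRPL17, at the polypeptide exit, had 5.23 and 16 tags, and MRPL3 and MRPL17 were thus among the members whose libraries stood farthest apart.

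MRPL1, of the mobile stalk where spent tRNA leaves, had 9.03 and 11.4 tags, a close pair. Similarly close were the values of MRPL27, a protein near the peptidyl transferase centre, with 8.56 and 9.98 tags. MRPL34 had 8.08 and 12 tags, 286 and 233 bp inside 1 of its 4 starts, in a peak that the assignment rule also gives to ABHD8. Near another MRPL34 start the peaks had 4.75 and 5.59 tags in replicates 1 and 2. The strongest peaks of MRPL1, MRPL27 and MRPL34 kept within 1.5 times between libraries. MRPL32, whose processing by the mitochondrial m-AAA protease precedes its assembly, had 4.75 and 12.4 tags. MRPL4, which lines the exit tunnel, had 5.23 and 12.2 tags, but the 2 peaks were not at the same place. In replicate 1 the MRPL4 peak lay 8154 bp past its start, just beyond the gene's end, where replicate 2 had a peak of 4.39 tags as well, and the 12.2-tag peak was 227 bp inside the start.

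Other large subunit proteins with a bacterial counterpart had intermediate peaks, each higher in replicate 2. MRPL21 had 6.65 and 9.38 tags. MRPL13, whose bacterial counterpart binds early in assembly, had 6.18 and 9.18 tags. MRPL15 had 5.23 and 8.38 tags. MRPL20 and MRPL23 show how the strongest peak of a gene can move between libraries. MRPL20 had 4.75 tags in replicate 1, 951 bp inside its start, and 7.58 tags in replicate 2 at the start itself, with a 5.79-tag peak at the former place. MRPL23, at the mouth of the exit tunnel, had 5.7 and 8.38 tags, with 3 peaks in replicate 1 and 8 in replicate 2 spread over a RefSeq span of 67613 bp. That span also holds the long non-coding RNA genes H19 and MRPL23-AS1, and its peaks cannot be assigned to MRPL23 alone.

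The weakest peaks found in both libraries included 4 members of the same role. MRPL18, of the central protuberance, had 5.23 and 5.79 tags at places that did not overlap. MRPL35 had 4.75 and 5.39 tags. MRPL19, on the face toward the small subunit, had 5.23 and 4.19 tags, and MRPL10, the base of the stalk that recruits translation factors, had 4.75 and 3.79. MRPL19 and MRPL10 were the 2 members whose MYC peak was lower in replicate 2.

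Of the large subunit proteins specific to mitochondria, MRPL42 had the strongest MYC peak, with 10.5 and 16 tags, centred 174 and 194 bp inside the start (replicate 2 at chr12:93467620-93467796). MRPL43 had 7.13 and 13.4 tags, 117 and 69 bp before the start. MRPL48, of the central protuberance, had 6.18 and 11 tags. For MRPL42, MRPL43 and MRPL48 the peaks of both libraries were thus at one promoter. MRPL45, which anchors the ribosome to the inner membrane, had 5.7 and 8.18 tags at a place about 23 kb into the gene (23294 and 23344 bp from the start), while the promoter shown above had only a 4.39-tag peak in replicate 2. MRPL54 had 4.75 and 8.78 tags. MRPL49 had 4.75 tags in replicate 1, 682 bp inside a start, and 7.18 tags in replicate 2, 195 bp before one. The peak at the MRPL49 promoter also lies within 1 kb of the start of FAU, which encodes a cytosolic ribosomal protein as a ubiquitin-like fusion. MRPL50, next to ZNF189, had the lowest mean of this role among members with a peak in both libraries, from 4.75 and 4.99 tags, and MRPL51 had 5.23 and 6.19 tags 858 and 871 bp before its start, beside the start of NCAPD2.

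Small subunit proteins with a bacterial counterpart had MYC peaks in both libraries at a share near that of all genes (18.8% and 21.2%), and in replicate 2 at 13 of 16 (81.2%, all genes 48.9%). MRPS17 was among the strongest of all members. MRPS17 had 8.56 tags (18 reads) and 18.8 tags (94 reads), 13.7 ± 7.24 (SD, n = 2), at 65 and 67 bp inside the start shown above (replicate 2 at chr7:55951856-55952032). MRPS15 had 6.65 and 13.6 tags, 189 and 168 bp before its start. MRPS28 had 4.75 and 7.78 tags. The peaks at MRPS17 and MRPS15 sat close to one another in the 2 libraries, although their heights differed.

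In the small subunit proteins specific to mitochondria, MRPS23 had 4.75 and 14.8 tags, 21 and 47 bp inside its start. MRPS27, a pentatricopeptide repeat protein that binds RNA, had 6.65 and 12.8 tags at 412 and 420 bp before its start, where the start of PTCD2 also lies. MRPS18B had 6.18 and 8.18 tags beside PPP1R10, MRPS33 had 5.23 and 6.39, and MRPS34 had 4.75 and 6.59 beside EME2 and NME3. The genes MRPS18A, MRPS18B and MRPS18C, which are related in sequence although only MRPS18C was grouped here as having a bacterial counterpart, fell into 3 states: MRPS18B had a peak in both libraries, MRPS18C only in replicate 2 (4.99 tags, beside HELQ), and MRPS18A in neither.

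MYC tags were higher in replicate 2 at 31 of the 33 members with peaks in both libraries, with a median ratio of 1.51 against 1.46 over all genes with peaks in both. The offset between libraries was thus about the same over members and over all genes. Over the 33 members the log2 tags of the 2 libraries had a Pearson r of 0.68 and a Spearman rho of 0.64, given as a description because the points share libraries and a lower limit. The 95% Poisson intervals of the 2 libraries were apart at 5 members (MRPL3, MRPS17, MRPL17, MRPS23 and MRPL32) and overlapped at 28. These intervals cover counting error only and do not allow for the unlike peak widths of the libraries. Overlap of these intervals is no test of a difference. All values here take each library's strongest peak, which lay at different places in the 2 libraries at MRPL4, MRPL18, MRPL20, MRPL23 and MRPL49. These are all among the members whose intervals overlapped.

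**Figure D3:**
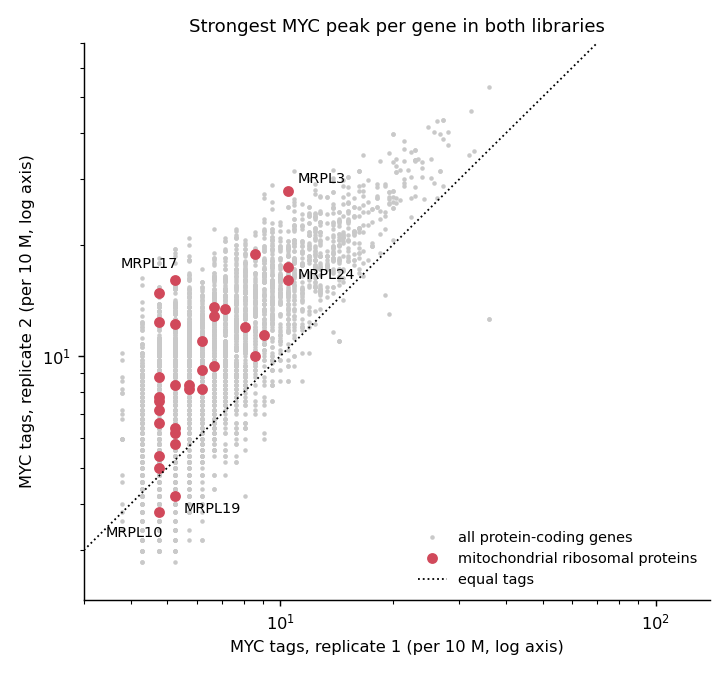
Tags per 10 M of the strongest MYC peak in replicate 1 (x, log axis) and replicate 2 (y, log axis) for the 33 members (red) and all protein-coding genes with a peak in both libraries (grey); the dotted line marks equal tags. MRPL19 and MRPL10 are the 2 members below the line, and MRPL3 is the highest, at 27.9 tags in replicate 2.

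Another 31 of the 77 members had a MYC peak in replicate 2 only, beside 5541 of all 20037 protein-coding genes. Tags at these 31 members ran from 2.79 (MRPL39) to 13.2, with a median of 4.99 (4.39 over all genes in that state). Of these, 5 lay under the lowest value listed in replicate 1 (3.8 tags) and 14 lay under 4.75 tags, the lowest value of any member there. MRPL14, which contacts the small subunit, had 13.2 tags 8823 bp from its start and 3.99 tags at 33 bp. MRPL33 had 9.98 tags at 93 bp. MRPS7, a primary binder of the small subunit's RNA head, had 7.38 tags 32 bp before its start, beside GGA3. MRPS12, of the decoding centre, had 6.99 tags beside SARS2, and MRPL53 had 6.79. MRPL14 and MRPL33 were above 9.18 tags, the replicate 2 median of the members found in both libraries.

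One member, MRPS6, had a MYC peak in replicate 1 only, of 5.23 tags and 41360 bp from its start. Over all 20037 protein-coding genes, 238 were in that state. Neither library had a MYC peak at 12 of the 77 members, beside 10010 of the 20037 genes. These 12 were MRPL9, MRPL22, MRPL30, MRPL38, MRPL41, MRPL52, MRPL58, MRPS2, MRPS18A, MRPS22, MRPS24 and MRPS26. They include MRPL58, a peptidyl-tRNA hydrolase that became a ribosomal protein, and MRPS2, an ancient small subunit protein. By role, 3 had a bacterial counterpart and 5 were specific to mitochondria in the large subunit, which holds MRPS18A despite its name, and 2 of each kind were in the small subunit.

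MYC peaks at members lay close to transcription starts. Among members with a RefSeq start, the strongest MYC peak was within 250 bp of a start at 17 of 27 in replicate 1 (63.0%) and 43 of 56 in replicate 2 (76.8%). For all protein-coding genes these shares were 21.2% of 3606 and 27.9% of 8024. The median distance was 117 and 76 bp at members, against 969 and 635 bp over all genes, which are longer and can hold peaks farther in. No test was made of this difference. Peaks over 1 kb from a start were the strongest ones at 3 members in replicate 1 (MRPL4, MRPL45 and MRPS6) and 5 in replicate 2 (MRPL14, MRPL28, MRPL36, MRPL45 and MRPS9).

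**Figure D4:**
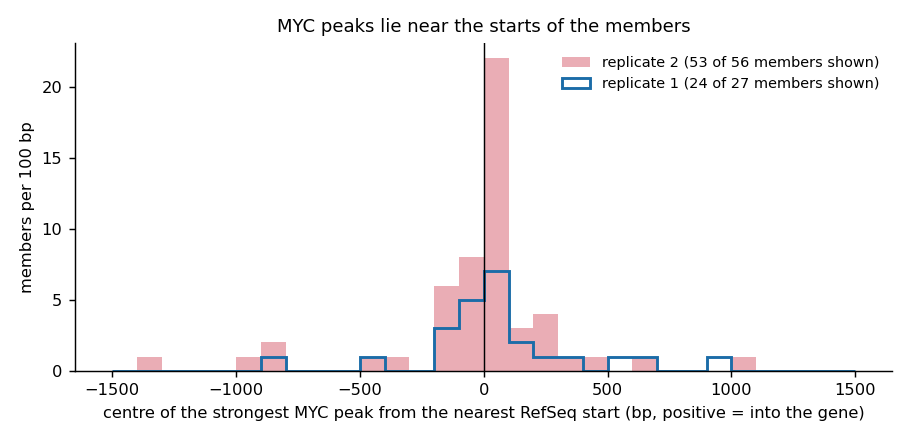
Distance in bp from the nearest RefSeq start to the centre of a member's strongest MYC peak, in bins of 100 bp, for replicate 2 (filled) and replicate 1 (line); positive values lie inside the gene, and peaks beyond 1500 bp are not drawn. Most members fall next to 0, with a median distance of 76 bp in replicate 2 and 117 bp in replicate 1.

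Some of these peaks lay at 2 genes. At 19 of the 65 members with a MYC peak (29.2%) the peak also lay within 1 kb of another protein-coding start, so it cannot be assigned to the member alone. Over all protein-coding genes with a MYC peak that share was 15.8%, and no test was made. Counting every other gene that the assignment rule gives the same peak, 30 members (46.2%) shared it, against 25.2% of all genes. MRPL43 thus shares its peak with TWNK, the mitochondrial DNA helicase, and MRPL21 with IGHMBP2. MRPL46 and MRPS11 share one peak and are not independent of each other. Other pairs are MRPS12 with SARS2, a mitochondrial seryl-tRNA synthetase, MRPL36 with NDUFS6, a complex I subunit, MRPL32 with PSMA2, a proteasome subunit, and MRPL40 with HIRA, a histone chaperone. MRPL18 shares its start region with TCP1, a subunit of the cytosolic chaperonin.

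The letters searched in the promoter windows, on both strands, were the canonical E-box CACGTG and the variant E-box CACGCG, the core TGATGNAA of CEBP and ATF factors, and the cores GCATGCGC of NRF1, a regulator of nuclear genes for mitochondria, and CCGGAAGT of ETS factors. No shorter string is part of a longer one. CACGTG was in a window of 9 of the 69 members with an entry (13.0%), against 10.9% of 15843 protein-coding genes and 8.34% of 22199 windows. By MYC state it was in 3 of 26 members with a peak in both libraries, 4 of 31 with a peak in one and 2 of 12 with none. In all genes those shares were 15.7%, 12% and 8.01%. With so few members in each state no order can be read from these counts, and no test was made. MYC tags in replicate 2 had a median of 6.59 over the 7 bound members with CACGTG and 6.39 over the 49 without. Over members with peaks in both libraries the median mean went the other way, 5.96 over 3 with it and 9.27 over 23 without. The highest replicate 2 value with CACGTG, 13.2 tags at MRPL14, was 8823 bp from the start, and the MRPL45 value also came from a peak far from its CACGTG. At 3 of the 7 a CACGTG was within 100 bp of the centre of some replicate 2 peak of the gene, not always its strongest. At MRPL45 that peak, 82 bp away, was the one of 4.39 tags and not the one of 8.18.

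CCGGAAGT was in 12 members (17.4%), against 6.97% of genes and 5.34% of windows, and GCATGCGC in 6 (8.7%), against 4.89% of genes and 3.74% of windows. CACGCG was in 12 members (17.4%, genes 18.1%, windows 14.3%), and TGATGNAA in MRPL55 alone (1.45%, genes 3.6%, windows 2.69%). Of the motifs searched, CCGGAAGT was thus the one whose share in members stood highest against that in all genes, and MRPL3 was one of its 12 members. A match is a description of letters, not of a bound site.

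ATF4 peaks were few at these genes, as they were over all protein-coding genes. They were found at 2 members in control replicate 1 (2.60%, all genes 2.01%), 6 in control replicate 2 (7.79%, all genes 3.77%), 2 in activated replicate 1 (2.60%, all genes 2.9%) and 4 in activated replicate 2 (5.19%, all genes 5.43%). The mean number was 4.0 ± 2.83 (SD, n = 2) in control and 3.0 ± 1.41 (SD, n = 2) in activated cells, a difference of -1.0 with a two-sided exact permutation p of 1.0, where 2 libraries against 2 cannot go below 0.33. The number of members with an ATF4 peak differed between conditions by less than between replicates. Both activated libraries had a peak at 2 members, MRPS27 and MRPL23 (all genes 1.16%), and both control libraries at 1, MRPS27 (all genes 0.509%). ATF4 and MYC peaks in both libraries of each factor were at these 2 members as well (all genes 0.709%). In all, 9 members had an ATF4 peak in some library, and in each the peak lay inside the gene. The share of all genes with an ATF4 peak in some library was not computed. At the members with a start in the promoter table, no ATF4 peak lay within 1 kb of it.

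MRPS27 was the only member with an ATF4 peak in all 4 libraries. The region (chr5:72282137-72282352, hg38) lies 37994 bp from the start, within a gene of 100838 bp, and whether it is exonic or intronic was not read from the gene table. ATF4 tags there were 6.7 and 5.37 in control replicates 1 and 2 (15 and 27 reads) and 8.82 and 10.4 in activated replicates 1 and 2 (22 and 52 reads). Both activated values were above both control values, as 6.04 ± 0.94 and 9.61 ± 1.12 (SD, n = 2 each). The activated to control ratio was 1.32 in replicate 1 and 1.94 in replicate 2. On the log2(tags + 1) scale the difference was 0.60 with a standard error of 0.28, and limma with Benjamini-Hochberg adjustment over 105 regions gave an adjusted p of 0.0774, which did not pass 0.05. Of those 105 regions, which had an ATF4 peak in all 4 libraries, 39 (37.1%) were called higher and 0 (0.0%) lower after activation, and at an unadjusted p under 0.05 the counts were 57 and 0. This direction turned with the scaling: with each library centred on its median, 0 were called higher and 9 lower. The median difference over the 105 regions was 0.54, close to that of MRPS27, and after that centring MRPS27 was at -0.05 (limma, adjusted p = 0.923). With the replicate number as a block no region was called higher, the median difference was 0.54, and at an unadjusted limma p under 0.05 the counts were 37 and 0. Leaving out any 1 of the 4 libraries leaves 1 library in a group, so only the median difference is given, from 0.43 to 0.67. No MYC peak overlapped the MRPS27 region, and the nearest were 37664 bp away in replicate 1 and 26023 bp away in replicate 2. ATF4 and MYC peaks at MRPS27 were thus at different places in the gene.

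At MRPL23 the ATF4 peaks of the 2 activated libraries did not overlap. Activated replicate 1 had 6.81 tags at chr11:1954141-1954311 and 4.81 tags at chr11:1998658-1998828, the latter within H19. Activated replicate 2 had 4.22 tags at chr11:2014295-2014499, which was 1.83-fold over background by the authors' value. Control replicate 2 had 4.97 tags at chr11:1954000-1954212, overlapping the first of these. The count of MRPL23 among members with a repeated ATF4 peak therefore rested on separate places.

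The other 7 members with ATF4 had a peak in 1 library each. In control replicate 1, MRPL17 had 6.25 tags, 1877 bp from its start. In control replicate 2, MRPL18 had 4.17 tags, MRPL1 and MRPL12 had 3.98 each, and MRPL48 had 3.58. MRPL12, which also binds the mitochondrial RNA polymerase, had its peak 1391 bp from the start. In activated replicate 2, MRPS28 and MRPS35 had 3.21 tags each, and the MRPS28 peak also lies in the readthrough gene TPD52-MRPS28. All but the MRPL17 peak were in replicate 2 libraries and below 4.46 tags, the lowest value listed in control replicate 1. The lowest values listed in the other libraries were 2.98 (control 2), 3.21 (activated 1) and 2.81 (activated 2). None of these 7 peaks was repeated in the other library of its condition.

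**Figure D5:**
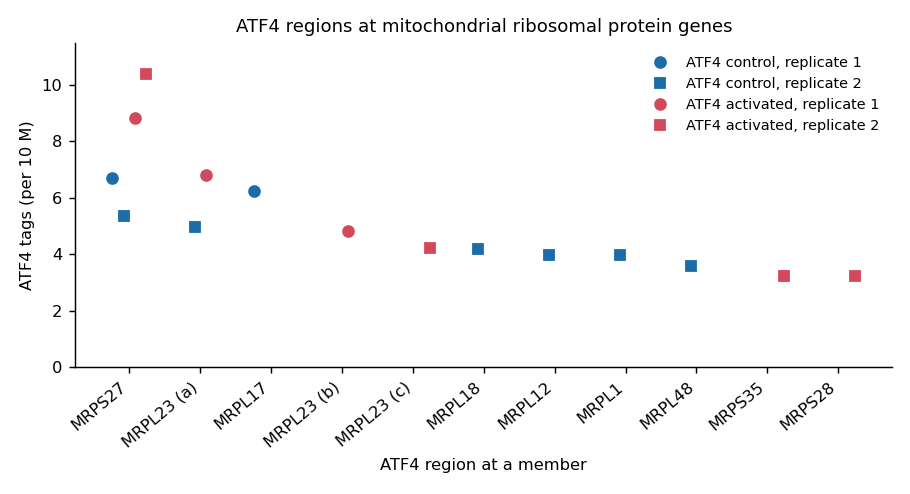
ATF4 tags per 10 M at every region with an ATF4 peak assigned to a member, by library (control in blue, activated in red, replicate 1 as circles, replicate 2 as squares); letters separate the 3 regions of MRPL23. MRPS27 is the only region with 4 points, from 5.37 to 10.4 tags, and no other region has more than 2.

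The rest of the mitochondrial translation apparatus was read from fixed lists, every symbol of which was matched. Mitoribosomal proteins under other symbols had MYC peaks in both libraries at 2 of 5: DAP3 (5.23 and 5.19 tags) and PTCD3 (9.51 and 14.2). AURKAIP1, CHCHD1 and GADD45GIP1 had peaks in replicate 2 only, of 2.99, 3.79 and 3.59 tags. Factors that assemble the mitoribosome or modify its RNA had them at 10 of 28 (35.7%). The strongest among these were at the helicase DDX28 (11.9 and 23.9 tags) and at TFB1M (10.5 and 16.8), the methyltransferase that modifies the small subunit RNA. Translation factors had them at 8 of 17 (47.1%), led by the initiation factor MTIF2 (10.5 and 18.6 tags) and the elongation factor TUFM (7.13 and 19.2). Genes for mitochondrial transcription and tRNA processing had them at 7 of 12 (58.3%), of which TWNK (7.13 and 13.4 tags) is the peak already counted for MRPL43. Among the others were PRORP, the nuclease subunit of mitochondrial RNase P (13.3 and 17.6 tags), and TFAM, which packages mitochondrial DNA and starts its transcription (5.7 and 12.6). All 4 lists lay above the 21.2% of all genes, a description with no test. ATF4 peaks in these lists were found in single libraries only: at DAP3 and TFB1M in activated replicate 2 (3.82 and 3.42 tags), LRPPRC in activated replicate 1 (4.81), NGRN in control replicate 1 (5.36), and SLIRP and TUFM in control replicate 2 (4.17 each). Unlike MRPS27, none of these genes had an ATF4 peak in both libraries of a condition.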

How the data were processed

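ATF4 and MYC ChIP-seq peak lists of 6 libraries were used, 1 per library and not pooled. Alignment and peak tools were Bowtie 0.12.9 and HOMER, on hg38, per the submitters' processing notes; settings are not given in the sources used here. Peak height is a signal: tags per 10 M, as scaled by the authors. The deposited lists also hold a total tag count, the fold (ratio) over the background library, which is not named, and its p-value, all the authors' own. The total is whole reads in replicate 1 and rescaled by the authors in replicate 2. Library depth was recovered from these columns, and 100.0% of peaks under 10 tags then gave whole reads within 0.15. In replicate 2 the depth was itself chosen to give whole reads at these peaks, so there the share is a fit and no separate check. Genes, starts and promoter sequences are from RefSeq GRCh38.p14. Each member was given its strongest peak per library. ATF4 regions with peaks (overlap of at least 1 bp) in all 4 libraries were fitted with limma 3.58.1 (R 4.3.3) on log2(tags + 1), tested on simulated data first. Python 3.11.15 did the rest. Members, lists and tests were chosen with earlier results of these data known. Named with values were the 25 strongest and 5 weakest members with MYC peaks in both libraries, the 5 strongest found in 1, all without a peak and all with ATF4. Alternatives changed the window, fold, lowest tag count, overlap, pseudocount, filter, centring and block, and left out each library. Others named (MRPS33, MRPL51, MRPS34, MRPS18C) were chosen after their values were seen. MRPL39 was named as the low end of the range in replicate 2 only, and MRPS6 as the only member found in replicate 1 alone.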

Additional observations from a re-analysis of the deposited data

How the results depend on the processing

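The 33 members with MYC peaks in both libraries became 19 with the peak centre inside the gene (24.7%, against 16.1% of all genes). They became 37 with a 5 kb window (48.1%, all genes 24.7%) and 28 with at least 4-fold over background (36.4%, all genes 19.3%). A common lowest tag count gave 32 (41.6%, all genes 20.6%). Single libraries gave 34 to 64 (44.2% and 83.1%, all genes 22.4% and 48.9%). Members with ATF4 in both activated libraries (2) and with both factors (2) became 0 within 1 kb of a start (all genes 0.2% and 0.0998%). They became 1 with at least 4-fold (all genes 0.888% and 0.509%) and with a common lowest tag count (0.809% and 0.499%). Overlapping peaks, a setting chosen after seeing the data, also gave 1, and no share of all genes was computed for it. Single libraries gave 2 to 4 for ATF4 in activated cells (all genes 2.9% and 5.43%) and 2 to 6 in control cells (2.01% and 3.77%). With both factors, leaving out 1 library gave 2 to 3 (all genes 0.719% to 2.37%). The 1 member with ATF4 in both control libraries became 0 within 1 kb of a start (all genes 0.0799%). A 5 kb window made the difference in ATF4 members per library 0. The 39 higher ATF4 regions became 0 with a replicate block (smallest limma adjusted p 0.115; MRPS27 0.179) and 0 when centred, with 9 lower. Leaving out 1 library, which leaves 1 in a group, gave a median difference from 0.43 to 0.67. MRPS27 changed sign when centred (-0.05). Same-numbered libraries shared depth and column format, but no label ties a number to a culture or day. Over 105 ATF4 regions, the deviations of control and activated replicate 1 from their group means had a Pearson r of 0.098. The mean deviation was removed first, so an offset shared by all regions could not show in this value. In every sensitivity setting tried, MRPS27 stayed short of the threshold. Averaging all peaks of a gene moved none of the 30 named members' mean MYC tags by more than the spread between libraries. Keeping only peaks at a start left the 27 members with a value unchanged. Their strongest peak already lay there, so that setting is no check of these values. MRPL4, MRPL23 and MRPL45 had no value at a start, since no peak lay there in both libraries. A member with 1 peak per library could not move when peaks were averaged. Depth limits what replicate 1 could list.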
